A study of Homo sapiens with 60 samples.

Results

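The genes described here are 8 members of the BCL2 family in EGFR-mutant lung adenocarcinoma cells: the antiapoptotic genes MCL1, BCL2L1, BCL2L2, BCL2 and BCL2A1, and the effectors BAX, BAK1 and BOK. They were taken by symbol from a fixed list, and all 8 were among the 19712 genes of the deposited tables. The 60 RNA-seq libraries covered 5 arms in triplicate (n = 3) for each of 4 established EGFR-mutant non-small cell lung cancer lines: HCC827, HCC2935, PC9 and H1975. In the DMSO arm, parental cells kept without drug for 21 days received the solvent for 24 h, and in the acute arm such cells received 500 nM osimertinib, an EGFR kinase inhibitor, for 24 h. Drug-tolerant persisters (DTPs) were the cells left after 21 days of 500 nM osimertinib. They were also sampled 24 h after the drug was removed (short washout) and at the time given as that of resumed growth (long washout), which was after 7 days in PC9, 3 days in H1975, 4 days in HCC827 and 10 days in HCC2935. All groups are cultured lines without host cells, and the long washout differed in length between lines.

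BCL2 family proteins decide whether the outer mitochondrial membrane is opened in apoptosis. BAX and BAK1 are the pore formers, the antiapoptotic proteins hold them in check, and BH3-only proteins bind the antiapoptotic proteins and release the effectors. In EGFR-mutant lung cancer cells, the BH3-only protein BIM (BCL2L11) is known to rise when EGFR is inhibited. mRNA levels do not show protein amount, which for MCL1 is set to a large degree by rapid degradation.

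In GENCODE 29 (GRCh38), MCL1 lies at chr1:150574551-150579738 on the minus strand, BCL2L1 at chr20:31664452-31723989 on the minus strand and BCL2L2 at chr14:23298790-23311759 on the plus strand. BCL2 lies at chr18:63123346-63320128 and BCL2A1 at chr15:79960889-79971446, both on the minus strand. Of the effectors, BAX lies at chr19:48954815-48961798 on the plus strand, BAK1 at chr6:33572547-33580293 on the minus strand and BOK at chr2:241551424-241574138 on the plus strand. The values are sums per gene, over exons and untranslated regions alike. BAX and BCL2A1 overlapped no other annotated gene. On the same strand, MCL1 overlapped ADAMTSL4-AS1 and BCL2 overlapped AC022726.1. On the opposite strand, BOK overlapped BOK-AS1, BAK1 overlapped GGNBP1, BCL2L1 overlapped ABALON and AL117381.1, BCL2L2 overlapped HOMEZ and PPP1R3E, and BCL2 overlapped AC022726.2. Whether strand was used in counting is not given in the sources used here. BAK1 also has 2 named pseudogenes, BAK1P1 and BAK1P2. The readthrough gene of BCL2L2 and PABPN1 held between 10.2% and 38.4% (median 22.1%) of the TPM of itself and BCL2L2 together, so the split of reads between these overlapping genes is uncertain.

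Start-site sequences are shown for BOK and BCL2A1, the members with the largest called rise and fall, and for BAX, the member called lower most often. RefSeq windows (GRCh38.p14, 250 bases before to 50 after a gene's start) were found for 6 of the 8 members. The BOK window lies inside the gene's GENCODE span, which starts at chr2:241551424. The BCL2A1 window also lies inside its GENCODE span, which on the minus strand begins at chr15:79971446. RefSeq and GENCODE thus place these starts differently, and which start the cells use was not tested. Capitals mark a GC box (GGGCGG) in BOK at chr2:241558495-241558794 (plus strand), a TATA box (TATAAA) in BCL2A1 at chr15:79971147-79971446 (minus strand), and E-boxes (CACGTG) and GC boxes in BAX at chr19:48954625-48954924 (plus strand), each searched on both strands.
BOK: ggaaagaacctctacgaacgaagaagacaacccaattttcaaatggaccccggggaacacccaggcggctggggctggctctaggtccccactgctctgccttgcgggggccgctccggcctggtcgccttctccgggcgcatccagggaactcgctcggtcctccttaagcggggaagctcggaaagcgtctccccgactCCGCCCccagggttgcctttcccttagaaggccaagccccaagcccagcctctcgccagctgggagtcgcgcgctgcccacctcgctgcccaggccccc
BCL2A1: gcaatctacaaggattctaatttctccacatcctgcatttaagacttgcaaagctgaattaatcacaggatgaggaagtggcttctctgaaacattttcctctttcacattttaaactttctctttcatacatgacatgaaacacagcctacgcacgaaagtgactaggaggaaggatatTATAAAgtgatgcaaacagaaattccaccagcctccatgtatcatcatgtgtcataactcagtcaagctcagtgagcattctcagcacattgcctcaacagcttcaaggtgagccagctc
BAX: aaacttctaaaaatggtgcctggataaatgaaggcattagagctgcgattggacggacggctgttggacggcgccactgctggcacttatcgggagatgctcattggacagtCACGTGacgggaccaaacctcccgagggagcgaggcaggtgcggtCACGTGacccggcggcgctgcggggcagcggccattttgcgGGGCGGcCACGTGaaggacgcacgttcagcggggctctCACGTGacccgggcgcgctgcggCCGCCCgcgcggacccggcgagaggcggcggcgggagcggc
The BAX window held 4 E-boxes, where 7.26% of 35116 windows held at least 1 and 5 windows (0.0142%) held 4 or more. A TATA box stood in 11.5% and a GC box in 45.0% of all windows. No member's window held the letters TGANTCA (AP-1, in 7.71% of windows), TGTTTAC (FOXO, 3.42%) or GGGA, any base and TTTCC in a row (NF-kB, 0.558%). The TATA box and GC box were added to the search after the sequences had been seen. These matches describe letters and not bound sites.

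Libraries held between 17.7 and 49.1 M estimated counts, with 34.7 to 47.1 M in PC9, 38.7 to 49.1 M in H1975, 17.7 to 25.1 M in HCC827 and 18.6 to 25.6 M in HCC2935, so depth and line went together. Every library lay nearest to another library of its own line, and 47 of 60 lay nearest to one of their own group. The 6 epithelial markers summed to between 2297 and 15820 TPM per library. Of the 3 lung adenocarcinoma markers (NKX2-1, NAPSA and SFTPB), SFTPB stayed under 1 TPM in PC9 and H1975, and the sum in PC9 was at most 6.23 TPM. The 4 leukocyte markers summed to at most 7.54 TPM and the 3 endothelial markers to at most 22.0 TPM. Summed fibroblast markers moved with treatment, from 5.30 to 9.47 TPM under DMSO to 26.0 to 62.9 TPM in DTPs in HCC827, from 24.4 to 60.3 to 42.1 to 117 TPM in H1975 (94.3 to 207 TPM under acute drug), from 27.0 to 33.7 to 44.3 to 84.6 TPM in HCC2935 and from 6.17 to 8.44 to 13.9 to 18.5 TPM in PC9. COL1A2 stayed under 1 TPM in every HCC827 library and DCN in every library of the other lines. The source of this marker RNA in the cultured lines was not tested. In bulk RNA, fewer cells that express a gene and less of its RNA per cell cannot be told apart.

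As checks of the labels, DUSP6, an ERK-induced phosphatase, was lower under acute osimertinib in all 4 lines (log2 fold changes of -6.00 in PC9, -3.40 in HCC827, -3.58 in H1975 and -5.52 in HCC2935), and MKI67, a proliferation marker, was lower in all 4 as well (-1.28, -2.31, -2.29 and -1.98). In DTPs, DUSP6 stayed lower in PC9, H1975 and HCC2935 (-4.82, -2.90 and -3.73), and in HCC827 it differed from DMSO by -0.34 (adjusted p = 0.481, edgeR). MKI67 was lower in the DTPs of all 4 lines. After the long washout, the RNA went against the label of resumed growth in HCC827 and H1975. There the 12 proliferation genes had medians of -0.02 and -0.27 against DTPs, and all 12 were still called lower than under DMSO (medians of -1.49 and -2.00). In PC9 and HCC2935 12 and 11 of them were called higher than in DTPs (medians of 1.13 and 1.36).

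Before treatment, the lines differed in which antiapoptotic gene led. Levels are given as TPM, which is scaled per transcript length and can be compared between genes. Under DMSO, BCL2L1, which encodes BCL-XL, averaged 339 TPM in HCC2935, 141 in HCC827, 130 in PC9 and 64.2 in H1975, and only HCC827 and PC9 overlapped. MCL1 led in HCC827 (169 TPM), followed by H1975 (133) and HCC2935 (131), which overlapped, and then PC9 (81.6). BCL2L2, which encodes BCL-W, was highest in HCC2935 (44.1 TPM) and ranged from 13.2 to 20.5 in the other lines. BCL2 itself reached 2.91 TPM in PC9 and 0.976 in H1975 and stayed under 0.5 on average in the other lines. BCL2A1, an NF-kB target best known from blood cells, averaged 14.7 TPM in HCC2935 and 12.7 in HCC827, which overlapped, and 0.254 in H1975 and 0.0626 in PC9.

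Among the effectors under DMSO, BAX was the most abundant in every line. It averaged 173 TPM in PC9, 105 in H1975, 84.7 in HCC827 and 77.0 in HCC2935, with PC9 above the other lines, whose neighbours in this order overlapped. BAK1 averaged 30.0 TPM in HCC2935, 27.2 in PC9, 26.0 in H1975 and 12.6 in HCC827, and PC9 overlapped with both HCC2935 and H1975, which did not overlap with each other. BOK, a family member that the antiapoptotic proteins do not hold in check in the same way, was highest in PC9 (38.7 TPM) and HCC2935 (31.2), which overlapped, then 22.9 in H1975 and 12.4 in HCC827.

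**Figure D1:**
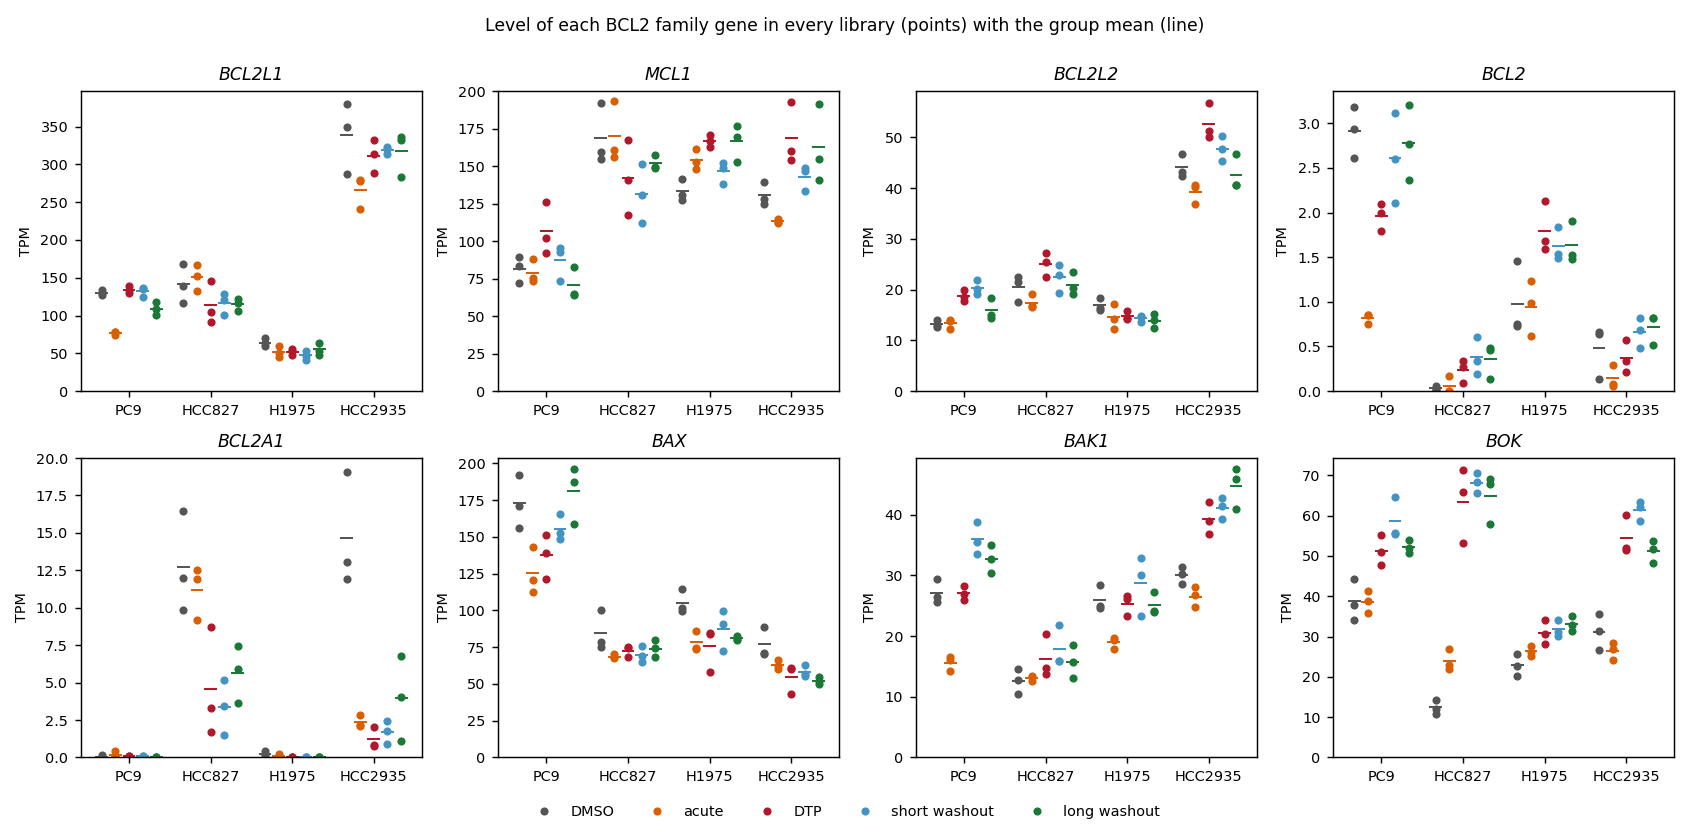
Each panel plots the level of 1 gene in TPM (vertical axis, from 0) in all 60 libraries, grouped by line and coloured by arm, with a point per library and a line at the mean of 3. BOK in HCC827 rises from 10.8 to 14.3 TPM under DMSO to 53.2 to 71.4 in DTPs, and BCL2A1 in HCC2935 falls from 11.9 to 19.1 TPM to 0.770 to 2.06.

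The first comparison asked what 24 h of osimertinib did. Antiapoptotic genes gave 0 higher and 3 lower calls in 17 tests, and effectors 1 higher and 5 lower in 12. The members' lower calls lay near the share of all tests called lower, and their higher calls lay below the share called higher. Each member was tested in each line with edgeR's quasi-likelihood test, adjusted over all genes and called at an adjusted p under 0.05. Of the 32 gene-by-line pairs 29 passed the filter on low counts, and 1 was called higher and 8 lower, where 24.4% of all gene-by-line tests were called higher and 26.2% lower. In PC9, 4 of 7 tested members were called (68.5% of all genes), in HCC827 2 of 7 (42.3%), in H1975 2 of 7 (44.9%) and in HCC2935 1 of 8 (47.1%). The median log2 fold change of the members tested was -0.46 in PC9, -0.06 in HCC827, -0.23 in H1975 and -0.27 in HCC2935, where the medians of all genes lay between 0.01 and 0.03. Without a replicate block, called shares were therefore no higher than those of all genes in any line. BCL2A1 in PC9 and H1975, with at most 12.2 counts in a library, and BCL2 in HCC827, with at most 12.1 counts under DMSO or acute drug, were not tested.

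The same-numbered replicates of HCC2935 deviated together in the acute and DMSO arms. With the replicate number as a block, 6 of the 8 members were called lower there in place of 1, adding BCL2 (-1.77, adjusted p = 0.0274), BCL2L1 (-0.35, adjusted p = 0.00203), MCL1 (-0.21, adjusted p = 0.0389), BAX (-0.30, adjusted p = 0.0421) and BOK (-0.24, adjusted p = 0.0404) in edgeR. The count over all genes went from 6623 to 7484, where 14060 were tested in the main fit. With the block, the members' called share in HCC2935 thus lay above that of all genes.

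The second comparison asked how DTPs differed from DMSO. Calls went in both directions: 6 higher and 8 lower of 29 tested, where 25.7% of all tests were called higher and 26.0% lower. BOK accounted for 3 of the 6 higher calls, and BAX for 3 of the 8 lower ones. By line, 5 of 7 members were called in PC9 (71.3% of all genes), 1 of 7 in HCC827 (36.7%), 5 of 7 in H1975 (45.7%) and 3 of 8 in HCC2935 (52.5%). The members' medians were -0.22, -0.25, -0.02 and -0.11 in this order, against medians of all genes between -0.0013 and 0.02.

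DTPs against acute drug asked what 21 days differed in from 24 h. Here 10 of 30 tests were called higher and 0 lower by edgeR, where 17.0% of all tests were called higher and 17.4% lower. At an unadjusted p under 0.05, 12 were higher and 3 lower, and DESeq2 called 2 lower (BCL2L1 and BCL2A1 in HCC827) and limma 1 (BCL2A1 in HCC827). The higher calls were 4 in PC9 (BCL2, BCL2L1, BCL2L2 and BAK1), 2 in HCC827 (BCL2L2 and BOK), 1 in H1975 (BAK1) and 3 in HCC2935 (MCL1, BAK1 and BOK). Of all genes, 39.8% were called in PC9, 29.5% in HCC827, 26.2% in H1975 and 42.4% in HCC2935. DTPs against DMSO and against acute drug share the DTP libraries, so these counts are not independent of each other.

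**Figure D2:**
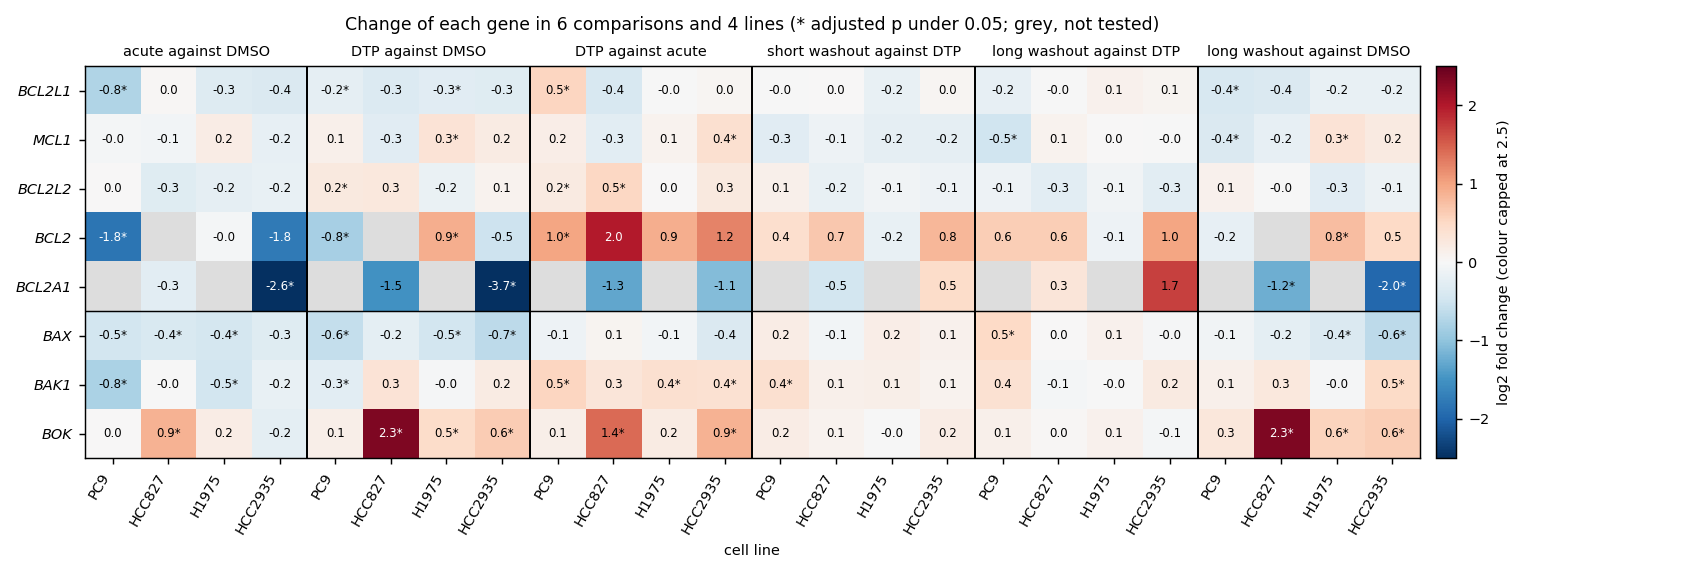
The colour and number in each cell give the log2 fold change of 1 gene (rows, antiapoptotic genes above the line and effectors below) in 1 line and comparison (columns), with a star at an adjusted p under 0.05 in edgeR and grey where the gene was not tested. BOK holds 9 higher calls and BCL2L2 3, and neither holds a lower one, while the columns of both washouts against DTP hold 3 calls, all in PC9.

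MCL1, which encodes a short-lived antiapoptotic protein, stayed within a log2 fold change of 0.49 of its comparison group in all 24 comparisons. In H1975 it measured 131, 127 and 141 TPM under DMSO, 153, 161 and 148 under acute drug, and 171, 167 and 163 in DTPs. All 3 DTP libraries lay above all DMSO libraries, and the change was called (log2 fold change 0.34, SE 0.10, adjusted p = 0.0213, edgeR). That call was lost without DMSO replicate 1 (adjusted p = 0.0740, edgeR), DMSO replicate 2 (0.0520) or DTP replicate 1 (0.0652). After the long washout H1975 still held 153, 170 and 177 TPM, a rise over DMSO of 0.34 that held with any library left out (adjusted p = 0.0122, edgeR). In HCC2935, MCL1 rose from 115, 113 and 112 TPM under acute drug to 154, 193 and 160 in DTPs (0.40, adjusted p = 0.0137, edgeR).

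In PC9, MCL1 measured 83.3, 72.0 and 89.5 TPM under DMSO, 91.9, 102 and 126 in DTPs, and 64.9, 64.4 and 82.9 after the long washout. It was lower after the long washout than in DTPs (-0.49, adjusted p = 0.0403, edgeR) and than under DMSO (-0.37, adjusted p = 0.0491). Both calls lay near the threshold and were lost when any of 5 of the 6 libraries was left out. The adjusted p then rose to between 0.0950 and 0.137 for the first and between 0.0529 and 0.169 for the second (edgeR). With each of the 6 left out in turn, the changes ranged from -0.59 to -0.37 and from -0.45 to -0.29. The MCL1 difference between DTPs and DMSO in PC9 was likewise called with library size only (0.28, adjusted p = 0.0428) and in limma on log2 TPM (0.38, adjusted p = 0.0176), but not with TMM. HCC827 gave no call for MCL1, with 155, 192 and 160 TPM under DMSO and 141, 167 and 118 in DTPs, which overlapped.

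BCL2L1 showed its clearest change in PC9. It stood at 128, 133 and 129 TPM under DMSO, at 74.7, 77.9 and 78.6 under acute drug and at 134, 129 and 140 in DTPs. The acute libraries lay below all others, with a log2 fold change of -0.75 (SE 0.06, adjusted p = 8.35e-06, edgeR), and DTPs rose from there by 0.54 (adjusted p = 0.000293). DTPs against DMSO gave -0.22 with TMM scaling (adjusted p = 0.00582, edgeR), although the TPM ranges overlapped. With library size only this call was lost, and in limma on log2 TPM the value was 0.05 and not called (adjusted p = 0.449). Scaling by library size only moved the median change of all genes by 0.16 in this comparison in PC9, by 0.14 for DTPs against acute drug and by 0.10 for the long washout against DMSO.

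In the other lines BCL2L1 varied less. H1975 held 63.1, 69.7 and 59.8 TPM under DMSO and 55.4, 52.7 and 47.7 in DTPs, a fall of 0.29 on the log2 scale that was called (adjusted p = 0.0358, edgeR) and was lost with any of the 6 libraries left out (adjusted p of 0.0607 to 0.0938). HCC2935 held 349, 380 and 288 TPM under DMSO and 280, 278 and 241 under acute drug, with no overlap, and gave an adjusted p of 0.0516 in edgeR without the block. HCC827 overlapped between DMSO (140, 168 and 116 TPM) and acute drug (133, 152 and 167). After the long washout PC9 stood at 118, 100 and 108 TPM, lower than under DMSO by edgeR (-0.41, adjusted p = 0.0144), a call lost without DMSO replicate 2 (adjusted p = 0.0580) or DMSO replicate 3 (0.0639) and in limma on log2 TPM.

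BCL2L2 moved little. In PC9 it measured 12.7, 13.9 and 13.0 TPM under DMSO, 13.9, 12.2 and 13.9 under acute drug and 17.7, 19.9 and 18.6 in DTPs, with all DTP libraries above the others. The rise over DMSO was 0.24 (adjusted p = 0.0247, edgeR) and was lost without DMSO replicate 1 (adjusted p = 0.0633), DMSO replicate 3 (0.0536) or DTP replicate 2 (0.0926). Over acute drug it was 0.23 (adjusted p = 0.0405, edgeR), and it was lost with any library left out (0.0640 to 0.123). HCC827 rose from 16.7, 16.5 and 19.2 TPM under acute drug to 25.5, 27.2 and 22.5 in DTPs, by 0.52 (adjusted p = 0.00757, edgeR), and this call held in every alternative run.

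BCL2 was a low-abundance mRNA throughout, but it changed in PC9. There it stood at 3.18, 2.61 and 2.94 TPM under DMSO and at 0.747, 0.853 and 0.855 under acute drug, which did not overlap. The log2 fold change was -1.82 (SE 0.15, adjusted p = 9.13e-06, edgeR). DTPs held 2.09, 1.99 and 1.80 TPM, between the acute and the DMSO libraries, with -0.84 against DMSO (adjusted p = 0.000426, edgeR) and 0.99 against acute drug (adjusted p = 0.00196).

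H1975 went the other way in DTPs. BCL2 measured 0.750, 1.45 and 0.726 TPM under DMSO and 1.59, 1.68 and 2.13 in DTPs, a rise of 0.91 (adjusted p = 0.0349, edgeR), with DMSO replicate 2 close to the DTP libraries. Leaving out any library but DMSO replicate 2 ended the call (adjusted p of 0.0562 to 0.127, edgeR), and without that replicate the rise was 1.27 (adjusted p = 0.00423). The long washout (1.48, 1.91 and 1.53 TPM) gave 0.77 against DMSO (adjusted p = 0.0470, edgeR) with the same weakness, since 5 of 6 libraries ended the call when left out (0.0801 to 0.149). HCC2935 ranged from 0.0593 to 0.822 TPM and HCC827 from 0 to 0.607 TPM, and neither gave a call for BCL2 in the main test. In HCC2935 the acute fall was called with the replicate block, with all 15 libraries of the line and without DMSO replicate 1 or acute replicate 3, and DTPs were called higher than acute drug without acute replicate 3 in both HCC2935 (adjusted p = 0.0436, edgeR) and HCC827 (0.0333). Changes of BCL2 against the acute arm in HCC827 rest on 0, 0 and 12.1 counts there and are no measure of size.

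BCL2A1 fell in HCC2935, the largest called decrease of any member. Its DMSO libraries held 13.0, 11.9 and 19.1 TPM, the acute libraries 2.19, 2.86 and 2.09, and the DTP libraries 2.06, 0.865 and 0.770. None of the treated libraries reached the DMSO range, with means 6.16-fold lower under acute drug and 11.9-fold lower in DTPs. The log2 fold changes were -2.64 (SE 0.29, adjusted p = 8.12e-05, edgeR) and -3.71 (SE 0.41, adjusted p = 9.78e-05). After the short washout the gene stood at 1.77, 0.875 and 2.42 TPM, and after the long washout at 1.12, 6.79 and 4.04, still below DMSO (-1.96, adjusted p = 0.0124).

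HCC827 started from a like level but did not show the early fall. BCL2A1 measured 9.84, 16.4 and 12.0 TPM under DMSO and 9.19, 11.9 and 12.5 under acute drug, which overlapped (-0.26, adjusted p = 0.421, edgeR). DTPs held 1.71, 8.70 and 3.28 TPM, all below the DMSO range but widely spread, with -1.50 (adjusted p = 0.0556, edgeR). This fall was called in 5 of 14 alternatives, namely DESeq2, limma on log2 TPM, the replicate block, all 15 libraries of the line and without DTP replicate 2 (lowest adjusted p = 0.00699). The long washout held 5.89, 3.66 and 7.45 TPM, lower than DMSO by edgeR (-1.22, adjusted p = 0.0170), and the call was lost without DMSO replicate 2 (0.0566) or long washout replicate 2 (0.0569). The difference between the 4 lines in the acute change was called for BCL2A1 (adjusted p = 0.00615, edgeR interaction test), but not in limma on log2 TPM. With at least 10 counts required in every library the gene was not tested. It passed the filter of the main test through HCC2935 and HCC827, and in PC9 and H1975 it was too low to be tested alone.

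BAX, the most abundant effector mRNA under DMSO, was lower after osimertinib in most lines by a modest amount. Under acute drug it was called in PC9 (-0.46), H1975 (-0.44) and HCC827 (-0.37), and in HCC2935 it gave -0.30 (adjusted p = 0.0535, or 0.0421 and called with the replicate block, edgeR). PC9 went from 192, 156 and 171 TPM under DMSO to 143, 112 and 121, and H1975 from 101, 114 and 99.7 to 74.7, 86.3 and 74.1, neither with any overlap. In HCC827, the libraries were 74.8, 100 and 78.8 TPM under DMSO and 70.5, 68.1 and 67.4 under acute drug, and the call (adjusted p = 0.0444, edgeR) was lost when any of 5 of the 6 libraries was left out (0.0528 to 0.134).

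BAX was also lower in the DTPs of PC9 (-0.60, adjusted p = 0.000585, edgeR), H1975 (-0.46, adjusted p = 0.0230) and HCC2935 (-0.66, adjusted p = 0.00733). HCC2935 held 70.7, 71.4 and 88.8 TPM under DMSO, 60.4, 43.0 and 61.1 in DTPs and 50.3, 52.0 and 54.4 after the long washout, where it remained lower than under DMSO (-0.64, adjusted p = 0.00317, edgeR). The H1975 call in DTPs was lost without DMSO replicate 3 (adjusted p = 0.0568) or DTP replicate 3 (0.0516), while the long washout call in H1975 (-0.36, adjusted p = 0.00435, edgeR) held with any library left out. PC9 held 139, 152 and 122 TPM in DTPs and 196, 188 and 159 after the long washout. This rise of 0.51 passed the threshold narrowly (adjusted p = 0.0491, edgeR) and ended with 5 of the 6 libraries left out in turn (0.124 to 0.158). The change in BAX did not pass the test of a difference between the lines, either under acute drug (adjusted p = 0.769, edgeR) or in DTPs (0.330).

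BAK1 fell under acute drug in PC9 and H1975 and stood higher again in DTPs. PC9 held 29.4, 26.5 and 25.6 TPM under DMSO, 16.1, 14.2 and 16.6 under acute drug and 27.0, 26.0 and 28.3 in DTPs. The acute libraries lay well below the rest, with -0.80 against DMSO (adjusted p = 4.01e-05, edgeR), and DTPs rose by 0.53 over them (adjusted p = 0.000937). PC9 DTPs were called lower than DMSO (-0.27, adjusted p = 0.0116, edgeR), but the TPM ranges overlapped and the call was lost with library size only and in limma on log2 TPM.

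H1975 BAK1 went from 24.6, 28.4 and 25.0 TPM under DMSO to 19.3, 19.7 and 17.9 under acute drug (-0.47, adjusted p = 0.00730, edgeR) and to 26.5, 26.1 and 23.3 in DTPs (0.39 over acute drug, adjusted p = 0.0295). The second call was lost when any of 5 of the 6 libraries was left out (adjusted p of 0.0549 to 0.105, edgeR). In HCC2935, BAK1 rose from 28.1, 26.7 and 24.8 TPM under acute drug to 39.0, 36.8 and 42.1 in DTPs (0.39, adjusted p = 0.0217, edgeR), a call lost without acute replicate 3 (0.0701), DTP replicate 1 (0.0527) or DTP replicate 3 (0.0842). It reached 47.6, 41.0 and 45.9 TPM after the long washout, 0.49 above DMSO (adjusted p = 0.00667, edgeR).

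BOK rose in the DTPs of HCC827, H1975 and HCC2935. HCC827 went from 14.3, 12.1 and 10.8 TPM under DMSO to 23.0, 21.9 and 26.9 under acute drug and 65.9, 53.2 and 71.4 in DTPs, 3 ranges that did not overlap. The mean was 1.92-fold higher under acute drug and 5.11-fold higher in DTPs, with log2 fold changes of 0.88 (SE 0.13, adjusted p = 0.000839, edgeR) and 2.33 (SE 0.16, adjusted p = 5.15e-05). In the washouts it stayed at 70.5, 65.6 and 68.3 TPM and at 69.2, 67.9 and 57.8 TPM.

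HCC2935 followed a different course over time. BOK held 31.3, 35.6 and 26.7 TPM under DMSO and 26.9, 28.4 and 24.2 under acute drug, which overlapped, and 60.1, 51.6 and 51.9 in DTPs. DTPs were higher than DMSO (0.63, adjusted p = 0.00310, edgeR) and than acute drug (0.86, adjusted p = 0.000356). After the long washout it stood at 53.6, 48.2 and 51.7 TPM, above every DMSO library (0.62, adjusted p = 0.00437).

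In H1975, BOK held 25.6, 22.8 and 20.3 TPM under DMSO, 30.6, 28.0 and 34.1 in DTPs and 31.4, 32.8 and 35.2 after the long washout, a rise of 0.46 in DTPs (adjusted p = 0.0208, edgeR) and of 0.55 after the washout (adjusted p = 0.00254). The DTP call was lost without DMSO replicate 3 (adjusted p = 0.0953), DTP replicate 1 (0.0518) or DTP replicate 3 (0.0740). PC9 held 44.2, 37.9 and 34.1 TPM under DMSO and 50.9, 47.8 and 55.3 in DTPs, which did not overlap, yet with TMM scaling the change was 0.14 and was not called (adjusted p = 0.214, edgeR). It was called with library size only (0.30, adjusted p = 0.0209) and in limma on log2 TPM (0.41, adjusted p = 0.00515). The change in DTPs differed between the 4 lines (adjusted p = 1.38e-07, edgeR interaction test), and this held in every alternative run.

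Among the effectors, the share of BOK therefore grew. It made up 11.5% ± 2.32 (SD, n = 3) of summed BAX, BAK1 and BOK TPM in HCC827 under DMSO and 41.5% ± 4.44 in DTPs, while BAX went from 77.0% ± 3.16 to 47.8% ± 4.53. In HCC2935, BOK went from 22.6% ± 3.73 to 36.8% ± 2.98 and BAX from 55.6% ± 5.34 to 36.7% ± 3.48. Summed effector mRNA in HCC827 was 110 TPM under DMSO and 153 in DTPs.

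The ratio of summed antiapoptotic to summed effector TPM differed widely between the lines. Under DMSO it was 3.84 ± 0.377 (SD, n = 3) in HCC2935, 3.13 ± 0.0773 in HCC827, 1.40 ± 0.105 in H1975 and 0.959 ± 0.0922 in PC9. In HCC827 it went to 1.88 ± 0.244 in DTPs and stayed at 1.90 ± 0.0806 after the long washout, with no library of either near the DMSO range of 3.05 to 3.21. In H1975 it went up, to 1.79 ± 0.0329 under acute drug and 1.80 ± 0.144 in DTPs, above all DMSO libraries, but stood at 1.44 ± 0.201 after the short washout, which overlapped with DMSO, and at 1.70 ± 0.121 after the long washout. PC9 stood at 0.952 ± 0.0933 under acute drug, 1.22 ± 0.154 in DTPs and 0.752 ± 0.106 after the long washout. HCC2935 stood at 3.64 ± 0.171 under acute drug, 3.62 ± 0.373 in DTPs, 3.185 ± 0.129 after the short washout and 3.56 ± 0.1385 after the long washout. These ratios are descriptions with no test, and they weigh each mRNA by its abundance alone. They also count BOK as an effector like the pore formers. In HCC827, BOK went from 12.4 TPM under DMSO to 63.5 in DTPs, BAX from 84.7 to 72.7 and BAK1 from 12.6 to 16.3. Summed antiapoptotic mRNA there went from 343.5 to 285.9 TPM.

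**Figure D3:**
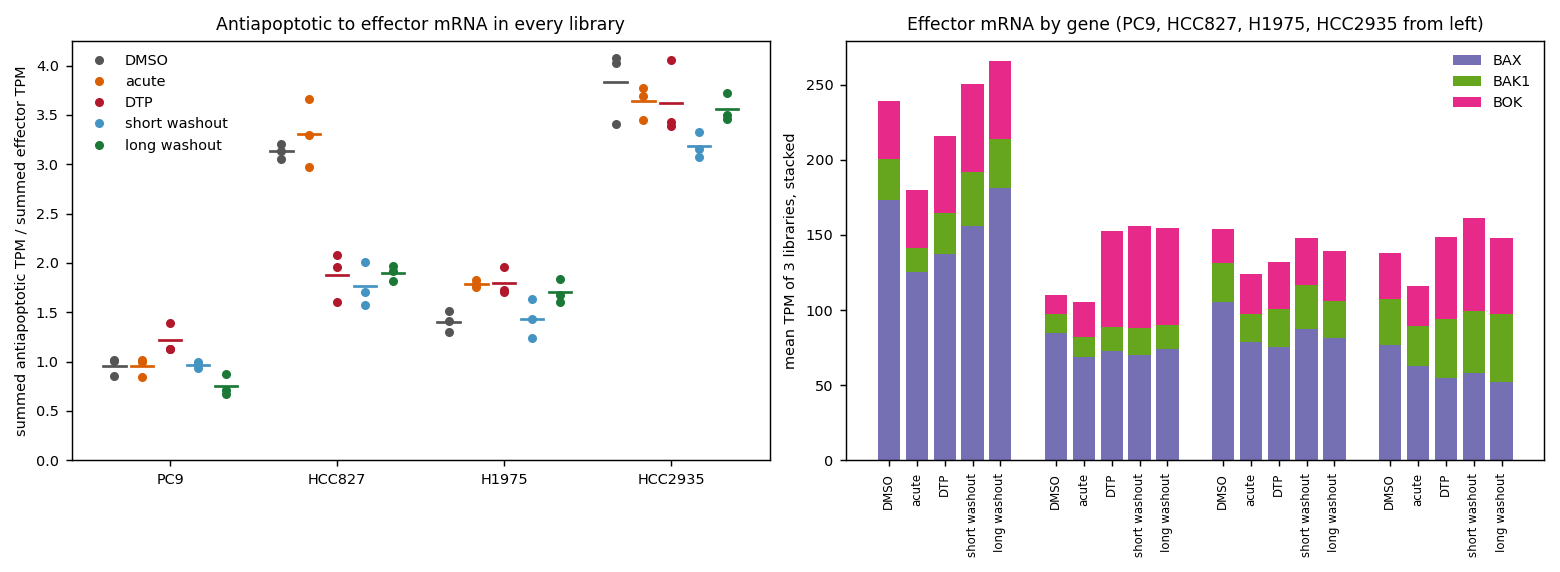
The left panel plots summed antiapoptotic over summed effector TPM (vertical axis, a ratio) for every library by line and arm, with a line at the mean of 3. The right panel stacks the mean TPM of BAX, BAK1 and BOK in each arm, and the BOK portion in HCC827 grows from 12.4 TPM under DMSO to 63.5 in DTPs while the BAX portion goes from 84.7 to 72.7.

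After drug removal for 24 h, few genes of any kind were called. Of 30 tests of members, 1 was called higher and 0 lower than in DTPs by edgeR, close to the 3.67% of all tests called higher and 2.80% lower. The call was BAK1 in PC9, from 27.0, 26.0 and 28.3 TPM to 38.9, 33.5 and 35.4 (0.41, adjusted p = 0.00531, edgeR), where 22.2% of all genes were called. At an unadjusted p under 0.05, 3 tests were higher and 3 lower, and DESeq2 called 1 lower (MCL1 in PC9). In HCC2935, where 3.52% of genes were called, no member was. In HCC827 and H1975 edgeR called 0 genes of all tested (0.0% in each), with 197 and 1950 at an unadjusted p under 0.05, 1 and 400 in DESeq2 and 0 in limma for both. The same-numbered libraries deviated together in these last 2 lines, and with the replicate as a block 2 and 1697 genes were called, MCL1 in H1975 among them (-0.23, adjusted p = 0.0373, edgeR), from 171, 167 and 163 TPM in DTPs to 152, 138 and 149.

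After the long washout, 1 of 30 tests was called higher (BAX in PC9) and 1 lower (MCL1 in PC9) than in DTPs, where 3.71% and 1.92% of all tests were. Of all genes 17.3% were called in PC9 and 5.16% in HCC2935, where no member was called. In H1975, 2 genes of all (0.0136%) were called by edgeR, 73 by DESeq2 and 0 by limma, with 660 at an unadjusted p under 0.05. In HCC827 edgeR and limma called 0 (0.0%) and DESeq2 7, with 434 at an unadjusted p under 0.05.

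Set against DMSO, 12 of 29 tests of members were called after the long washout, 6 higher and 6 lower. These counts lay close to the shares of all tests called, 20.9% higher and 20.5% lower. BOK in HCC827, H1975 and HCC2935, MCL1 and BCL2 in H1975 and BAK1 in HCC2935 were higher. BCL2L1 and MCL1 in PC9, BCL2A1 in HCC827 and HCC2935 and BAX in H1975 and HCC2935 were lower. By line, 2 of 7 members were called in PC9 (30.6% of all genes), 2 of 7 in HCC827 (39.7%), 4 of 7 in H1975 (55.0%) and 4 of 8 in HCC2935 (39.9%).

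Differences between the 4 lines were tested in 24 libraries per comparison. Under acute drug, 4 of the 8 members passed (40.5% of all genes), namely BCL2L1, BCL2A1, BAK1 and BOK. In DTPs, 6 passed (61.6% of all genes), namely BOK, BCL2, BAK1, MCL1, BCL2L2 and BCL2A1, of which BCL2L2 and BCL2A1 lay close to the threshold. BCL2A1 in PC9 and H1975 and BCL2 in HCC827, too low to be tested alone, entered these tests with the other lines. BCL2L1 did not pass in DTPs (adjusted p = 0.947, edgeR).

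The BH3-only genes, whose products release the effectors, were called higher more often than lower against DMSO. In DTPs against acute drug it was the reverse, with 3 of 31 tests called higher and 11 lower. There 17.0% of all tests were called higher and 17.4% lower. The counts and changes that follow are against DMSO. Under acute drug 16 of 31 tests were called higher and 1 lower, and in DTPs 13 and 5, where 24.4% of all tests were called higher and 26.2% lower under acute drug and 25.7% and 26.0% in DTPs. Their median log2 fold change under acute drug was 0.86 in PC9, 0.43 in HCC827, 0.23 in HCC2935 and -0.04 in H1975, where the medians of all genes lay between 0.01 and 0.03. In DTPs 6 of 8 tests were called higher in PC9, 2 of 8 in HCC827, 3 of 8 in H1975 and 2 of 7 in HCC2935. The DTP medians were 0.90, 0.42, 0.11 and -0.09 in this order. BMF, a BH3-only gene, rose in all 4 lines under acute drug, from 3.55 ± 1.20 to 75.6 ± 11.1 TPM (SD, n = 3) in PC9 (4.41), from 19.3 ± 11.6 to 110 ± 8.62 TPM in HCC827 (2.43), from 2.81 ± 0.607 to 7.04 ± 1.37 TPM in H1975 (1.30) and from 56.7 ± 26.5 to 331 ± 39.5 TPM in HCC2935 (2.54, all log2 fold changes). It was still higher in the DTPs of all 4 (3.40, 1.66, 1.50 and 1.50). BBC3, which encodes PUMA, rose in all 4 lines under acute drug (1.86, 1.66, 1.70 and 1.23, in the same order) and in the DTPs of PC9 (2.13) and H1975 (1.12). BCL2L11 (BIM), which is described here after its values had been seen, rose under acute drug in PC9 (0.94), HCC827 (0.41) and HCC2935 (1.08), while H1975 gave -0.06 (adjusted p = 0.804, edgeR). In DTPs it rose in PC9 (1.34) and HCC2935 (0.55). PMAIP1 (NOXA) in HCC2935 was the lower call under acute drug (-1.07). The 5 lower calls in DTPs were BIK in PC9 (-0.60), HCC827 (-0.77) and H1975 (-2.69) and PMAIP1 in H1975 (-0.39) and HCC2935 (-0.95).

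**Figure D4:**
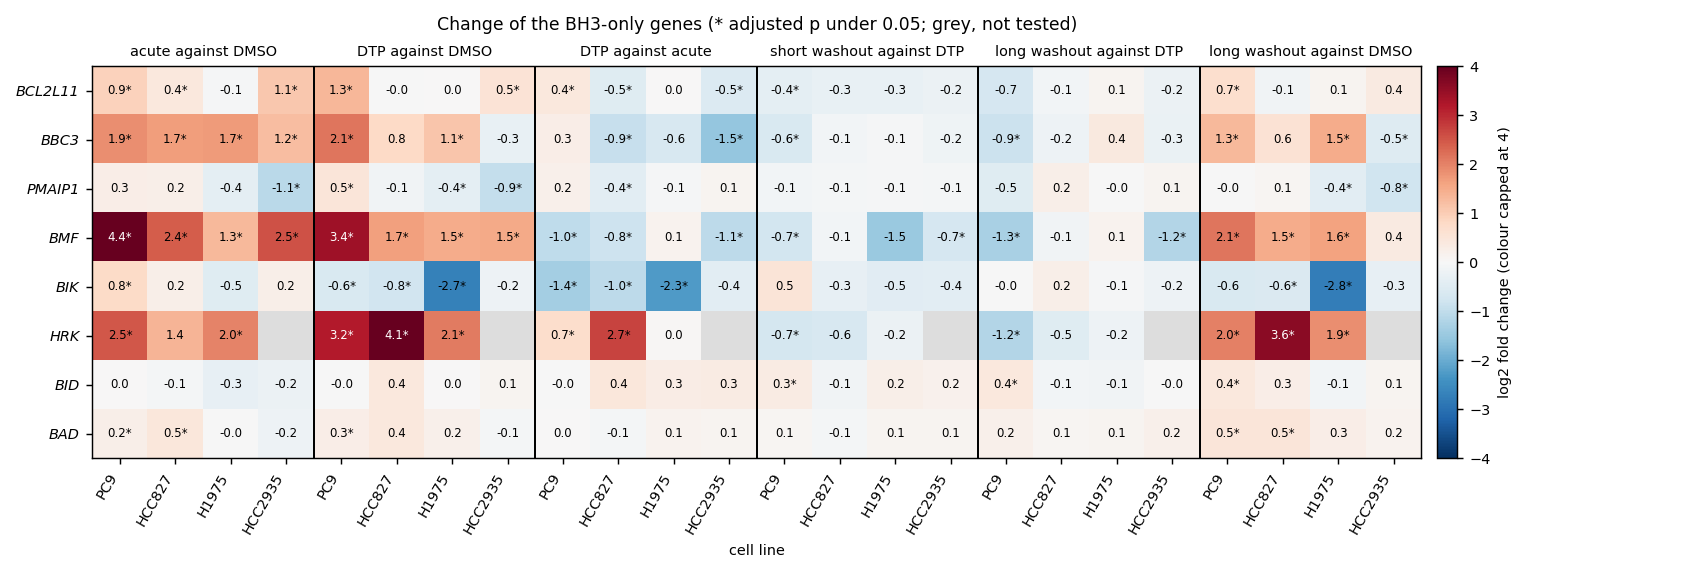
The colour and number in each cell give the log2 fold change of a BH3-only gene (rows) in 1 line and comparison (columns), with a star at an adjusted p under 0.05 in edgeR and grey where the gene was not tested. BMF is starred in all 4 lines under acute drug and in DTPs, and BIK in DTPs is lower in PC9, HCC827 and H1975.

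Other genes of the pathway were mixed, and list medians are given as the lowest and highest of the 4 lines. Their counts stand against the same shares of all tests, 24.4% higher and 26.2% lower under acute drug and 25.7% and 26.0% in DTPs. CYCS, which encodes cytochrome c, was lower in all 4 lines under acute drug and in DTPs (-2.24 in PC9, -1.34 in HCC827, -1.86 in H1975 and -1.48 in HCC2935 under acute drug), and APAF1, the apoptosome scaffold, was higher under acute drug in PC9 (0.93) and H1975 (0.61), and in DTPs higher in PC9 (0.85) and lower in HCC2935 (-0.41). Of the less studied family members, 6 of 15 tests were called higher and 5 lower under acute drug, and 2 and 6 of 16 in DTPs, with medians of -0.20 to 0.73 and of -0.93 to 0.91. Among them BCL2L12 was lower in all 4 lines in both. BCL2L13 in PC9 and HCC2935 made up the 2 higher calls in DTPs, and BCL2L15 in HCC827 was the remaining lower call under acute drug. Genes that control MCL1 protein turnover gave 4 higher and 0 lower of 24 under acute drug, the 4 all in PC9 (HUWE1, BTRC, TRIM17 and USP9X), where 68.5% of all genes were called, and 9 and 0 in DTPs by edgeR, with medians of 0.02 to 0.33 and of -0.07 to 0.34. The deubiquitinase USP9X rose in the DTPs of PC9 (0.68), H1975 (0.50) and HCC2935 (0.34), and the ubiquitin ligase gene FBXW7 in those of H1975 (0.59) and HCC2935 (0.46).

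Other lists bear on known inputs to the members, again beside 24.4% of all tests higher and 26.2% lower under acute drug and 25.7% and 26.0% in DTPs. The higher calls of the p53 targets under acute drug and of the NF-kB targets in DTPs lay near these shares. Of the p53 targets, 10 of 40 tests were higher and 5 lower under acute drug, and 13 and 7 in DTPs, with medians of -0.04 to 0.23 and of -0.12 to 0.27. TP53I3 was higher in all 4 lines under acute drug and GDF15 in PC9, HCC827 and H1975. The 5 lower calls under acute drug were CDKN1A, MDM2, FAS and TNFRSF10B in PC9 and FAS in HCC2935. Of the NF-kB targets, 15 of 36 were higher and 6 lower under acute drug, and 11 and 7 in DTPs, with medians of -0.46 to 1.04 and of -0.23 to 0.92. ICAM1, an adhesion molecule, was higher in the DTPs of all 4 lines (3.11 in PC9, 0.52 in HCC827, 2.23 in H1975 and 1.68 in HCC2935), and NFKB2 was lower in HCC2935 under acute drug (-0.65) and higher in PC9 and H1975 (0.83 and 0.69). ERK-dependent genes were lower in 38 of 40 tests and higher in 0 under acute drug, and lower in 34 and higher in 2 in DTPs, with medians of -3.52 to -2.39 and of -2.73 to -0.76. ETV4 was lower in all 4 lines in both, with DUSP4 in HCC827 (1.38) and SPRY2 in H1975 (0.63) as the 2 higher calls in DTPs. Proliferation genes, PCNA and RRM2 included, were lower in 48 of 48 tests in both, with medians of -2.38 to -1.69 and of -1.89 to -1.46.

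The genes most like each member were sought across the means of 20 groups, with each line centred on its own mean, among 13532 genes. The measure is Pearson's r over points that share line and control libraries, given without a test. BOK was most like MRAS (r = 0.966) and FAAP100 (0.958), BAK1 like TRAPPC4 (0.943) and FAT1 (0.940), BCL2 like RBPMS2 (0.928) and FZD9 (0.925), and BAX like MRPL18 (0.927) and MRPL57 (0.915). BCL2L1 was most like AKAP11 (0.915) and GSK3B (0.869), BCL2L2 like VLDLR (0.913) and AP5M1 (0.893), BCL2A1 like MLX (0.894) and PYM1 (0.888), and MCL1 like SLC33A1 (0.807) and WDR26 (0.788). With Spearman's rho, 7 of these 16 genes stayed among the first 2 of their member, and MLX came at rank 42 for BCL2A1. The r was taken on log2 values with the pseudocount of 0.01, and the minimum of 1 TPM held only for the partner genes. Group means of BCL2A1 in PC9 and H1975 lay between 0.0156 and 0.2545 TPM. Those of BCL2 in HCC827 lay between 0.03183 and 0.3787 TPM. Differences between such low values entered the r of these 2 members.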

How the data were processed

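RNA-seq libraries of 60 samples (4 lines, 5 arms, 3 replicates, called biological triplicates in the labels) were made with an Illumina TruSeq mRNA kit and sequenced with paired 150 base reads. The authors deposited estimated counts per gene, with fractions and not normalized, and log2 values of TPM with a pseudocount of 0.01. The submitters' processing notes name HISAT2 2.1.0, Salmon 0.8.2 and hg38, without their roles, and the annotation is not given in the sources used here. The deposited log2 values were turned back to TPM for levels.

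Estimated counts were rounded and fitted in edgeR 4.0.16 (R 4.3.3) per line and comparison on 6 libraries, with TMM, filterByExpr and the quasi-likelihood F-test. Benjamini-Hochberg adjustment ran over all genes tested, with calls at an adjusted p under 0.05. Interaction F-tests of line and treatment used 24 libraries. The alternatives were limma 3.58.1 on log2 TPM, DESeq2 1.42.0, a fit of all 15 libraries of a line, a replicate block, a minimum of 10 counts per library, RLE size factors, no filter, scaling by library size only and each library left out. The fits were tested on simulated data with 200 changed genes.

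The members and lists were chosen with earlier results of these data known. Named genes were the 8 members, the 2 genes most like each (mean of at least 1 TPM), the 2 genes of each list called in the most of 24 comparisons, any gene that a count of 5 or fewer turned on, and DUSP6 and MKI67. Replicate numbers come from the sample titles. Their pairing was checked by correlating deviations from the group means. Every pair exceeded 0.1 in 3 of 24 line comparisons (lowest pair 0.108 in HCC2935 for acute against DMSO, and 0.382 in HCC827 and 0.237 in H1975 for short washout against DTP), and for these the blocked value stands beside the main result where it changes a call. The main fits have no block. Replicates of a group differed by 8.98 to 139 times counting error, so no library was a copy of another. The counts of one list of apoptosis genes are not reported here.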

Additional observations from a re-analysis of the deposited data

Results flagged for a closer look

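The change of 10 gene and comparison pairs differed between the 4 lines by edgeR's interaction F-test over 24 libraries, with p adjusted over all genes. They are 4 of 8 members under acute drug, where 40.5% of all genes passed, and 6 of 8 in DTPs, where 61.6% did. Under acute drug against DMSO these were BOK (adjusted p = 0.000812), with a called rise in HCC827, BAK1 (adjusted p = 0.00253), with called falls in PC9 and H1975, BCL2A1 (adjusted p = 0.00615), with a called fall in HCC2935, and BCL2L1 (adjusted p = 0.0197), with a called fall in PC9. For DTPs against DMSO they were BOK (adjusted p = 1.38e-07), BCL2 (adjusted p = 0.00185), which fell in PC9 and rose in H1975, BAK1 (adjusted p = 0.0167), MCL1 (adjusted p = 0.0178), BCL2L2 (adjusted p = 0.0467) and BCL2A1 (adjusted p = 0.0476). Of 31 alternatives each, BCL2A1 in DTPs lost its call in 19, BCL2L2 in 18, BAK1 in 3, MCL1 in 2 and BCL2 in 1, and BCL2A1 under acute drug in 2. Under the minimum of 10 counts in every library, BCL2 and BCL2A1 were not tested, which is counted here as a lost call. BCL2 in DTPs kept its call wherever it was tested. BCL2A1 in PC9 and H1975, and BCL2 in HCC827, were too low to be tested alone. The BOK calls in both comparisons and those of BAK1 and BCL2L1 under acute drug were kept in all 31.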

How the results depend on the processing

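Of the 32 gene and line pairs in each comparison, the members called higher under acute drug went from 1 to 2 with all 15 libraries of a line, and those called higher in DTPs against DMSO from 6 to 11 in limma on log2 TPM. Members called lower in DTPs against acute drug went from 0 to 2 in DESeq2 and to 1 with library size only, in limma, with the replicate block and with all 15 libraries. Those called lower after the short washout went from 0 to 1 in DESeq2 and with the replicate block. For the long washout against DTP, the 1 higher call became 3 in DESeq2 and with all 15 libraries and 0 with limma, a minimum of 10 counts per library, RLE size factors, no filter or scaling by library size only, and the 1 lower call became 2 with all 15 libraries. Members whose change in DTPs differed between lines went from 6 to 3 with the replicate block.

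When single libraries were left out, the higher calls ranged from 3 to 7 for DTPs against DMSO, from 1 to 2 for the short washout and from 0 to 3 for the long washout against DTP. Lower calls ranged from 0 to 2 for DTPs against acute drug and from 0 to 1 for the long washout against DTP, and the members that differed between lines in DTPs from 3 to 6.

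BCL2L1 in PC9 DTPs against DMSO was the only value to change sign after a call, to 0.046 in limma on log2 TPM. Library size only moved the median of all genes by over 0.1 in 3 of 24 fits, all in PC9. Over single values, the replicate block ended 5 calls and added 8, and outside the 3 line comparisons whose numbers pair the samples share only a number. Pair correlations ran from -0.613 to 0.671 (median -0.00939). The cause of these shifts was not tested. BCL2 outside PC9 and H1975, and BCL2A1 in PC9 and H1975, had too few counts for small differences to be detectable.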
